A study of Mus musculus with 2 samples.

Results

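The endothelial barcodes are droplets with the RNA of blood or lymph vessel lining cells that were found in libraries of skin cells sorted for CD45, the surface protein of leukocytes. They were selected on 5 endothelial genes: Cdh5 (VE-cadherin of endothelial junctions), Kdr (the VEGF receptor VEGFR2), Egfl7 (a secreted endothelial protein), Emcn (the sialomucin endomucin) and Plvap (the protein of fenestral and caveolar diaphragms). A barcode had to hold 500 or more UMIs (unique molecular identifiers, 1 per captured RNA molecule), 250 or more genes and under 10% mitochondrial UMIs. It also needed at least 2 of the 5 genes with a UMI, a sum of 4 or more UMIs over them, and at most 4 UMIs of the keratin genes Krt5 and Krt14. These limits gave 113 of 26553 barcodes: 79 of 11934 in the WT library and 34 of 14619 in the IL31RAKO library.

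The WT group was C57Bl/6 mice, and the IL31RAKO group was mice labelled as the same strain with the IL-31 receptor alpha chain knocked out. In both, Biostir ointment with house dust mite (HDM, D. farinae) was spread on the shaved back over 3 weeks at 2 applications weekly, and a 2% SDS solution was put on the skin beforehand. No untreated library is part of the comparison. Each group was 1 library of live CD45+ cells from neck skin pooled over 4 mice, made with the 10x Single Cell 3′ v2 kit from 30000 loaded cells. With 1 library per group there is no replicate and no test, so every difference is one between these libraries. Values in brackets are 95% intervals of counting error alone.

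Endothelial cells line every vessel, and their gene expression differs along the vessel tree. Venules of inflamed skin are where leukocytes leave the blood: selectins (Selp, Sele) catch them on the vessel wall, and the atypical receptor Ackr1 carries chemokines across it. Arterial cells are known for gap junction protein Gja4 and the transcription factor Sox17, capillary cells for the lipase anchor Gpihbp1 and the fatty acid carriers Cd36 and Fabp4, and lymphatic cells for the transcription factor Prox1 and the chemokine Ccl21a. IL-31 acts on a receptor made of Il31ra and Osmr, and Osmr also pairs with Il6st (gp130) to bind oncostatin M.

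The barcodes were spread over the range the selection allows. The sum over the 5 genes ran from 4 to 115 UMIs in WT (median 19) and from 4 to 96 in IL31RAKO (median 17.5). All 5 genes were detected in 34 of 79 WT and 14 of 34 IL31RAKO barcodes. Just inside the limit, 6 WT barcodes and 1 IL31RAKO barcode had a sum of 4. Just outside it, 2 barcodes of each library had a sum of 3 over at least 2 genes. The keratin limit removed 0 barcodes in either library. Of barcodes passing the cell limits, 247 sequences occurred in both libraries. None of these was endothelial in both, and 3 endothelial barcodes passed the cell limits in the other library.

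The whole libraries held 57000499 (WT) and 71333292 (IL31RAKO) UMIs. Endothelial barcodes were deep, with medians of 5621 and 5897 UMIs against 2911 and 3178 in the other barcodes. The 5 selection genes took only 0.434% and 0.389% of their UMIs, so a limit of 4 raw UMIs itself favours deep barcodes. Medians of mitochondrial UMIs in endothelial barcodes were 4.39% and 3.48%, against 2.79% and 2.47%.

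Endothelial barcodes with and without a UMI of Ptprc, the gene of CD45, were kept apart as a check for droplets that hold a leukocyte as well. Ptprc was at 0 in 53 WT and 21 IL31RAKO barcodes and had a UMI in 26 and 13. In IL31RAKO, Ptprc-positive endothelial barcodes had a median of 11416 UMIs and Ptprc-zero ones 4200, while in WT the medians were 5778.5 and 5567. A Ptprc UMI was found in 32.9% (Clopper-Pearson interval 22.7 to 44.4%) of WT and 38.2% (22.2 to 56.4%) of IL31RAKO endothelial barcodes. The shares were 72.6% and 75.2% in the other barcodes, although those were shallower. Thinned to 1000 UMIs per barcode, which left out 3 WT and 2 IL31RAKO members, the shares were 9.21% and 12.5%, against 38.6% and 38.4%. The highest Ptprc count in an endothelial barcode was 4 UMIs in each library. Most endothelial barcodes therefore had no detected RNA for the protein used in the sort.

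Other leukocyte genes were low where Ptprc was 0. The list of 14 leukocyte genes (among them Ptprc itself, Cd52, Coro1a and Laptm5) took 0.127% of UMIs in WT and 0.161% in IL31RAKO Ptprc-zero barcodes. In Ptprc-positive endothelial barcodes it took 0.494% and 0.407%, and in the other barcodes 1.14% and 1.24%. Free RNA, measured in droplets of 10 to 50 UMIs, held 1.35% and 1.29%. One Ptprc-zero IL31RAKO barcode stood apart: it held 39 leukocyte-list UMIs of its 2412 and, of the neutrophil list, 21 UMIs. A Ptprc count of 0 thus did not mean that leukocyte RNA was absent. Gene levels are given for the Ptprc-zero barcodes unless stated. No doublet caller was run.

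**Figure D1:**
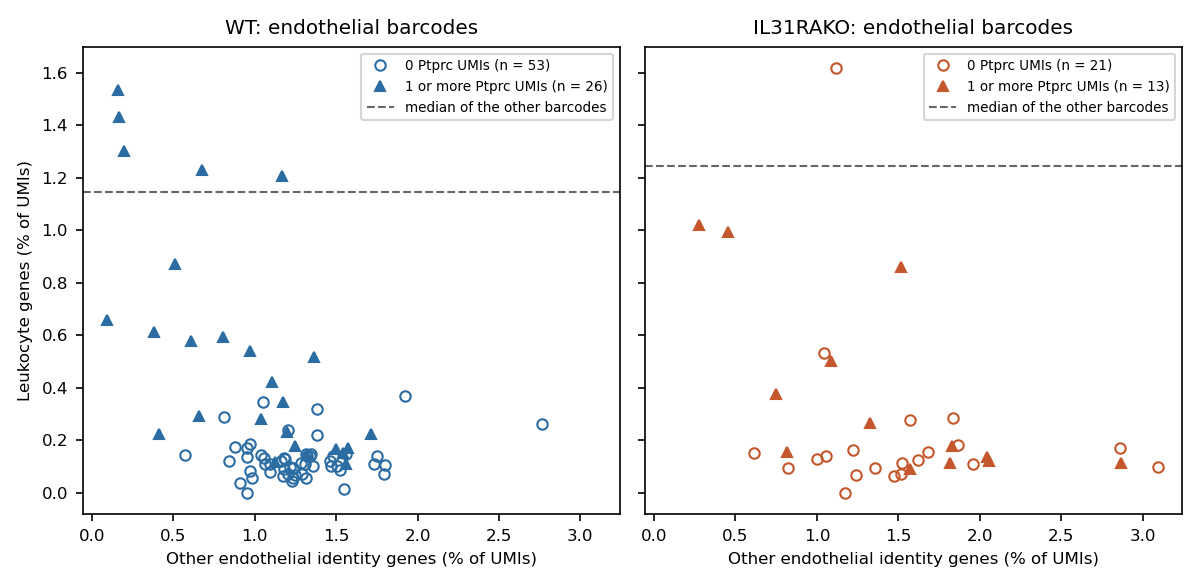
Each point is 1 endothelial barcode; the x axis is the % of its UMIs from 32 endothelial genes that the selection did not use, the y axis the % from 14 leukocyte genes, and the dashed line is the median leukocyte share of all other barcodes. Open circles (0 Ptprc UMIs) lie mostly low, with 2 IL31RAKO exceptions at 0.531% and 1.62%, while filled triangles (1 or more Ptprc UMIs) spread upward, to 1.53% in WT.

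Genes of endothelial identity that the selection did not use were present throughout. A list of 32 such genes made up 1.31% of UMIs in WT and 1.47% in IL31RAKO Ptprc-zero barcodes, with a lowest barcode of 0.573% and 0.614%. The other barcodes held 0.115% and 0.0801%. Ptprc-positive barcodes held 0.961% and 1.29%, with a lowest barcode of 0.0939% in WT, so some of them were endothelial by the selection genes alone. Of the 29 genes of this list with 20 or more UMIs, 26 were at least 4-fold above the other barcodes in both libraries, with medians of 233-fold and 254-fold. Over all genes measured this way, 466 of 3002 (15.5%) passed that fold. The same cells were selected on co-expressed genes, so this is a description of what the selection captured and not a test. The 3 that missed it in at least 1 library were Ctla2a, Ets1 and Fli1, which stood at 715, 219 and 50.4 CPM (UMIs per 1000000 of the summed UMIs) in the other WT barcodes.

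Sele (E-selectin) had the highest smaller fold of both libraries. It stood at 350 CPM in WT and 133 in IL31RAKO Ptprc-zero barcodes, against 0.284 and 0.131 CPM in the other barcodes. Tmem252, a membrane protein gene and the next in order, stood at 533 and 307 CPM against 0.590 and 0.262. Ptprb, the phosphatase that restrains VE-cadherin and TIE2 signalling, stood at 315 and 440.2 CPM against 0.393 and 0.245. Lower in that order, Tie1, an angiopoietin co-receptor, stood at 173 and 299 CPM against 0.349 and 0.327. The first 20 genes also held Unc45b and Grrp1, along with Mmrn2, Adgrf5, Myct1, Podxl, Esam and Cldn5, which are vascular surface, matrix or junction proteins, and Tacr1, the substance P receptor (215 and 99.7 CPM against 0.328 and 0.115). Across these 20 genes, levels in other barcodes did not exceed 1.75 CPM (Esam in WT).

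**Figure D2:**
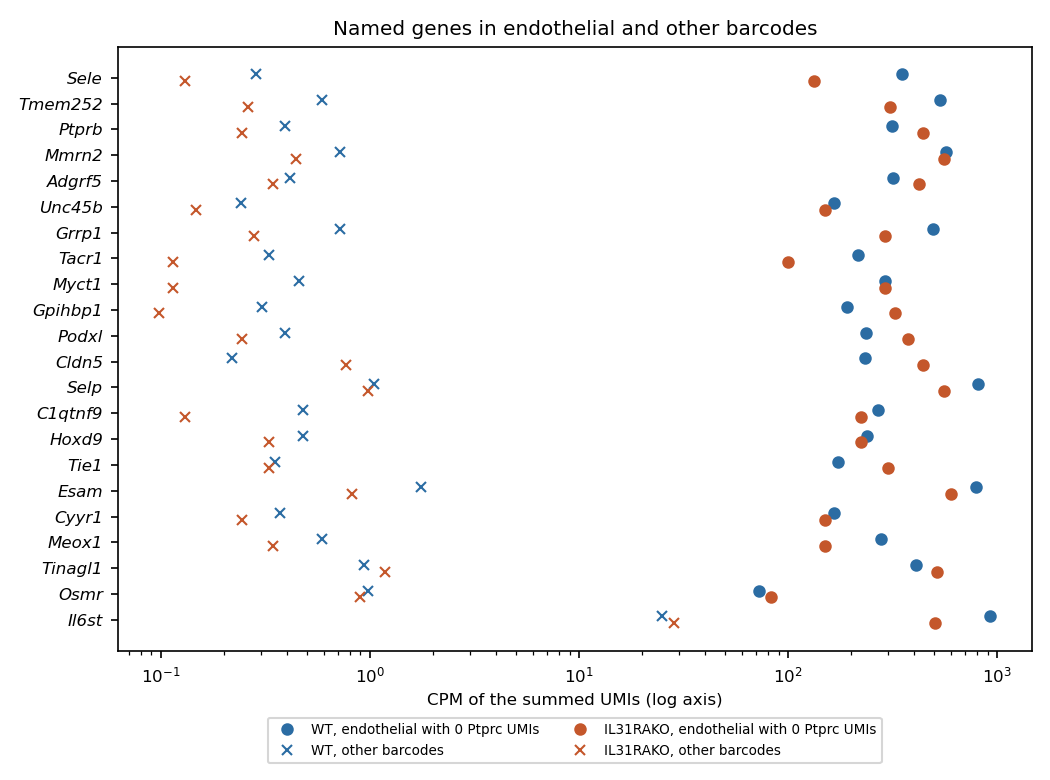
Levels of the 20 named genes, Osmr and Il6st in CPM of summed UMIs on a log axis; filled circles are Ptprc-zero endothelial barcodes and crosses the other barcodes, with WT in blue and IL31RAKO in orange. Circles of the 20 genes lie between 99.7 CPM (Tacr1 in IL31RAKO) and 810.3 CPM (Selp in WT), far to the right of every cross of those genes.

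Promoter sequence was looked at because the genes of this contrast share a cell type. RefSeq promoters (GRCm38.p6) were matched for 3 of the 5 selection genes (Kdr, Egfl7 and Emcn) and 14 of the 20 named genes. The 250 bases before the annotated start were searched on both strands for CAGGAAG and CCGGAAG, 2 spellings of the site bound by ETS factors, the family of the endothelial regulators Erg and Fli1. At least 1 of them occurred in 2 of the 3 and in 6 of the 14. Some windows cover annotated exons: all 250 bases of Cyyr1 (1 of the 6) and Unc45b, and 212 of Tie1. In promoters of all 27025 genes in the table, 16.8% held one. Shown are 3 windows without an annotated exon: E-selectin, which has the highest fold, the adhesion receptor Adgrf5, and the neighbouring selectin gene Selp, whose window held neither spelling. Capitals mark a match, which is a description of these letters and not a bound site.
Sele (chr1:164047984-164048233, plus strand): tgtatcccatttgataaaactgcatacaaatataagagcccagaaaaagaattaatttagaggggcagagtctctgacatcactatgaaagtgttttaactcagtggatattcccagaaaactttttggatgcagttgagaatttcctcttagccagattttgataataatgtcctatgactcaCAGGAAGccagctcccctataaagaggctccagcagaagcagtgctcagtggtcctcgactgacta
Adgrf5 (chr17:43360181-43360430, plus strand): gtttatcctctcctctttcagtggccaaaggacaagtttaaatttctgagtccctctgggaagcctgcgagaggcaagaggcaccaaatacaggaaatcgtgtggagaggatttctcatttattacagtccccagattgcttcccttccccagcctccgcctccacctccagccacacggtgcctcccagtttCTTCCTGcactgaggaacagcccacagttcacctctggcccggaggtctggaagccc
Selp (chr1:164115014-164115263, plus strand): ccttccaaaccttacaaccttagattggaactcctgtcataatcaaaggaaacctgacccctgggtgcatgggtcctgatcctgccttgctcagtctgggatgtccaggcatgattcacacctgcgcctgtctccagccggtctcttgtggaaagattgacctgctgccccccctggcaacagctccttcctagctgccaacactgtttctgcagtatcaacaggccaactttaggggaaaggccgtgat
The match began 66 bases before the start of Sele and, on the opposite strand, 57 bases before that of Adgrf5.

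Markers of the other cell types a skin digest can hold were near 0 in the Ptprc-zero barcodes. Keratinocyte genes took 0.0156% and 0.0083% of their UMIs, fibroblast genes 0.0055% and 0.0058%, and mast cell and basophil genes 0.0024% and 0.0033%. Each of these lay below the share in free RNA. Pericyte and smooth muscle genes took 0.0104% and 0.0025%, with 10 of 12 genes at 0 in WT and 11 of 12 in IL31RAKO. The WT value lay above the 0.00340% of free RNA and was mostly Tagln, with 28 of its 30 UMIs. The exception was 1 Ptprc-positive IL31RAKO barcode that held 129 of the 131 pericyte UMIs in that set and 36 fibroblast-list UMIs. MHC class II genes were far below the other barcodes: H2-Ab1 stood at 1080.4 and 1005 CPM against 9339 and 11065, and these levels were also under those of free RNA. They were not read as expression by endothelial cells. The MHC class I gene H2-K1 was instead above its level in the other barcodes, at 1610.1 and 1180 CPM against 1011 and 925.

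The first comparison asked whether vessel cells made up the same share of both libraries. Endothelial barcodes were 0.662% of WT (0.524 to 0.824%) and 0.233% of IL31RAKO barcodes (0.161 to 0.325%), a ratio of 0.351 [0.228, 0.531]. Ptprc-zero barcodes had a ratio of 0.323 [0.185, 0.545] and Ptprc-positive ones a ratio of 0.408 [0.193, 0.823]. A cell without CD45 enters these libraries only past the sort gate, and the denominator is every barcode that passed the cell limits, most of them leukocytes. Fewer vessel cells in the skin, a gate that let fewer through and more of the other cells beside them cannot be told apart.

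Endothelial barcodes were grouped by vessel genes into sets that overlap. These were chosen after the values were seen: a UMI of Ackr1 or Selp (venules), of Gja4 or Sema3g (arterial genes), of Gpihbp1 (capillaries), or at least 2 of Ccl21a, Prox1 and Mmrn1 (lymphatics). In WT, 58 of 79 barcodes held Ackr1 or Selp, 5 held Gja4 or Sema3g, 15 held Gpihbp1 and 4 were of the lymphatic set. In IL31RAKO the counts were 15, 12, 11 and 1 of 34. Only 1 WT barcode and 0 IL31RAKO barcodes held both an Ackr1 or Selp UMI and a Gja4 or Sema3g UMI. By contrast, 6 of the 12 IL31RAKO barcodes with Gja4 or Sema3g also held Gpihbp1, as did 2 of the 5 in WT. Gpihbp1 was found together with Ackr1 or Selp in 4 WT barcodes and 1 IL31RAKO barcode.

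**Figure D3:**
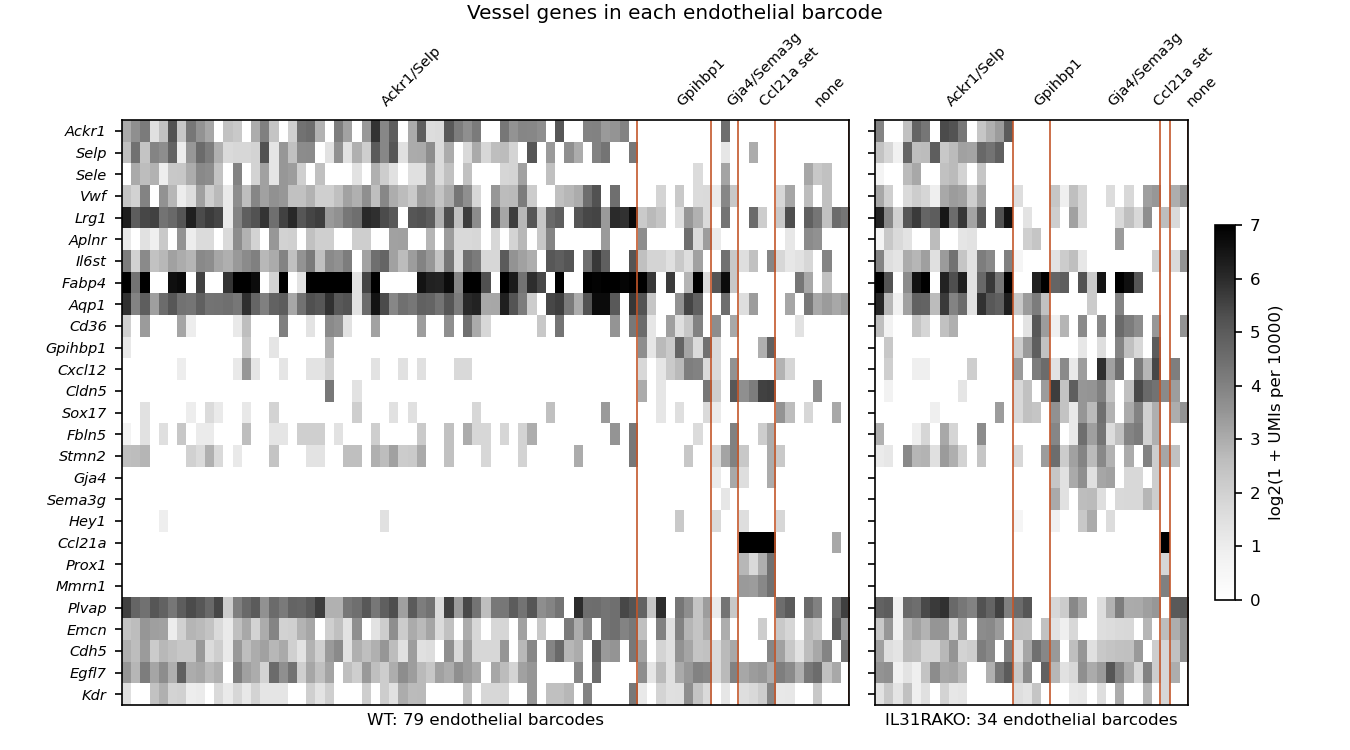
Each column is 1 endothelial barcode and each row a gene, with the grey scale giving log2(1 + UMIs per 10000); orange lines divide the marker sets, and a barcode of several sets is placed first by lymphatic, then by Gja4/Sema3g, Ackr1/Selp and Gpihbp1. The Ackr1/Selp columns fill most of WT (58 of 79 hold such a UMI), and Gja4/Sema3g columns are 12 of 34 in IL31RAKO.

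The make-up of the endothelial barcodes differed between the libraries. Ackr1 or Selp was detected in 73.4% (62.3 to 82.7%) of WT and 44.1% (27.2 to 62.1%) of IL31RAKO members. Gja4 or Sema3g was detected in 6.33% (2.09 to 14.2%) and 35.3% (19.7 to 53.5%). Thinned to 1000 UMIs, the first shares were 55.3% (43.4 to 66.7%) and 31.2% (16.1 to 50.01%), whose intervals overlap. The second were 1.32% (0.0333 to 7.11%) and 18.8% (7.21 to 36.4%), from 1 of 76 and 6 of 32 barcodes. In the other barcodes Ackr1 or Selp was found in 1.28% and 1.00%, and Gja4 or Sema3g in 0.101% and 0.151%.

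Set against all barcodes of a library, the sets had unlike ratios, and their difference was not tested. The Ackr1/Selp set was 0.486% of WT and 0.103% of IL31RAKO barcodes, a ratio of 0.211 [0.111, 0.377]. The lymphatic set, 4 and 1 barcodes, had a ratio of 0.204 [0.00414, 2.06]. That ratio leaves out 2 IL31RAKO barcodes with the lymphatic genes that the endothelial selection did not take. Barcodes in none of the 4 sets, 8 and 2, had a ratio of 0.204 [0.0211, 1.02]. The Gpihbp1 set had a ratio of 0.599 [0.249, 1.39]. The Gja4/Sema3g set had a ratio of 1.96 [0.642, 7.10], from 5 and 12 barcodes. Of the 5 WT barcodes in that last set, 2 were also of the lymphatic set. Ptprc-positive barcodes were 3 of the 5 in WT and 5 of the 12 in IL31RAKO, and the part of leukocyte RNA in these counts was not tested. The IL31RAKO barcode with 129 pericyte UMIs is 1 of the 12, and without it the share of endothelial barcodes was 11 of 33, or 33.3% (18.0 to 51.8%).

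**Figure D4:**
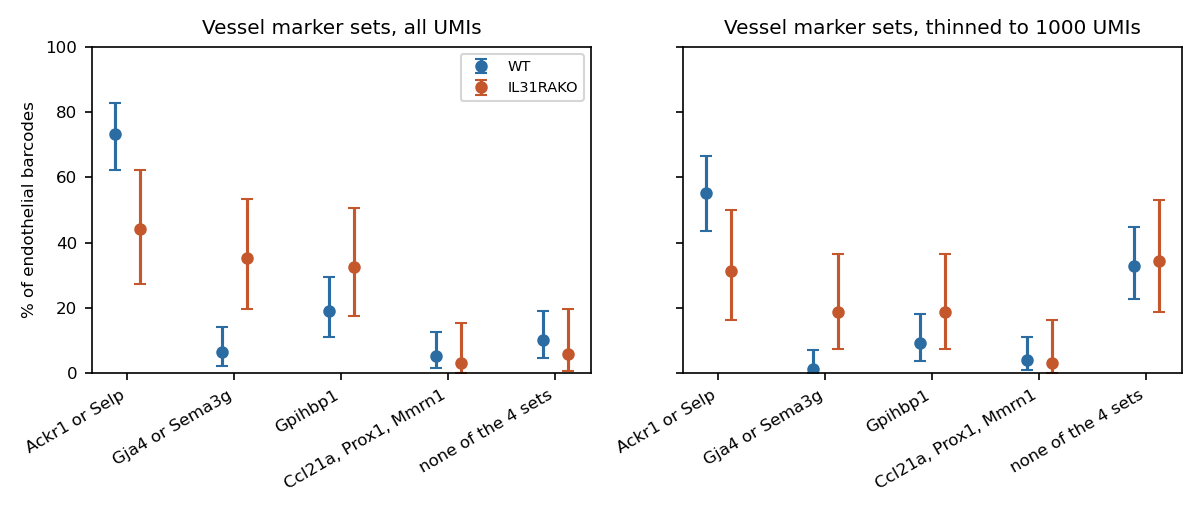
Points are the % of endothelial barcodes of each library (79 WT, 34 IL31RAKO) with each marker set, and bars are 95% Clopper-Pearson intervals; the left panel uses all UMIs and the right panel 1000 UMIs per barcode. The Ackr1/Selp share is lower in IL31RAKO (44.1% against 73.4%) and the Gja4/Sema3g share higher (35.3% against 6.33%), and in the left panel the intervals separate, for Ackr1/Selp narrowly (62.3% against 62.1%).

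Lymphatic barcodes were few. The WT library had 4, with 306, 136, 106 and 67 Ccl21a UMIs, and IL31RAKO had 1, with 258. All 5 had no UMI of Plvap, which most lymphatic endothelium is known to lack. Plvap is 1 of the 5 selection genes. Outside the endothelial barcodes, 2 IL31RAKO and 0 WT barcodes also held at least 2 of Ccl21a, Prox1 and Mmrn1. All 4 WT barcodes also held a UMI of another set: 2 of Gpihbp1, 2 of Gja4 or Sema3g and 1 of Ackr1 or Selp. Endothelial barcodes held 616 of the 675 Ccl21a UMIs (91.3%) in WT and 258 of 698 (37.0%) in IL31RAKO. Ccl21a has near-identical gene copies, so its reads may be split among them.

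Fabp4, the fatty acid carrier of vessel and fat cells, divided the Ackr1/Selp set. In WT, 39 of these 58 barcodes held 6 to 325 Fabp4 UMIs (median 49), while 16 held 0 and 3 held 1 or 2. In IL31RAKO 11 of 15 held 6 to 292 UMIs (median 54), and 4 held at most 2. Depth was alike in WT, with medians of 5499 UMIs where Fabp4 was high and 6089 where it was low. The genes that followed it in WT, picked after their values were seen, included the fatty acid translocase Cd36 (92 UMIs in 20 of 39 barcodes against 1 UMI in 19). Matrix genes were among them as well: Fbln2 had 78 UMIs against 3 and elastin, Eln, 69 against 3. Igfbp4, an insulin-like growth factor binding protein, had 65 against 1. In the opposite direction, the urea transporter Slc14a1 had 6 UMIs in the 39 barcodes and 26 in the 19, and the basement membrane gene Vwa1 30 and 66. Car4, which is on the capillary list as Cd36 is, also went that way, with 10 and 23 UMIs. Plvap was detected in 39 of 39 and 17 of 19 barcodes, and Lrg1, a secreted venular glycoprotein, in 38 and 17. The 2 genes that define the set differed: Ackr1 was at 1300 CPM in the 39 and 747 in the 19, Selp at 816 and 1203. In IL31RAKO, Cd36 (28 and 0 UMIs) and Fbln2 (33 and 1) had the same direction, over only 4 low-Fabp4 barcodes, while Slc14a1 stood at 159 and 125 CPM. Of those 4 barcodes, 3 were Ptprc-positive, and the 4 held 1 Ackr1 UMI against 171 in the 11.

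The second comparison asked how gene levels in vessel cells differed without the receptor. In Ptprc-zero barcodes, with 288793 summed UMIs in WT and 120388 in IL31RAKO, 85 of 3007 genes (2.83%) were at least 2-fold higher in IL31RAKO with an interval above 1. Another 67 (2.23%) were at least 2-fold lower. The median log2 ratio of all 3007 genes was 0.01. Without the barcode that held most UMIs of each gene, 32 of the 85 and 38 of the 67 remained past the fold. Fewer genes could be compared there, so some may have dropped out for lack of UMIs. Among barcodes with at most 2 leukocyte-list UMIs, 10 in WT and 3 in IL31RAKO, 186 genes could be compared, and 0 of the 85 and 1 of the 67 were past the fold. How many of the 85 and 67 were among the 186 was not counted. These last counts therefore cannot show whether the differences depend on leukocyte RNA. A cap in raw UMIs also favours shallow barcodes. Counting intervals hold no variation between barcodes and are too narrow where few barcodes hold the UMIs. The make-up just described differs between the libraries in these same sums, so ratios are also given within the 41 WT and 9 IL31RAKO Ptprc-zero barcodes with an Ackr1 or Selp UMI, a restriction chosen after seeing the data.

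Genes of the arterial list were higher in IL31RAKO. Of 13 listed, 4 had enough UMIs, and all 4 passed the fold, with a median log2 ratio of 1.71. Gja4 reached the minimum of 20 UMIs only through its IL31RAKO count. With a minimum of 10 UMIs, 10 arterial genes had a UMI in both libraries, of which 8 lay above and 2 below 1 (median 1.47). Gja4, the gap junction protein connexin 37, had 3 UMIs in WT and 17 in IL31RAKO, 10.4 and 141 CPM, a ratio of 13.6 [3.93, 72.4]. A single IL31RAKO barcode held 9 of the 17, and also 17 Fbln5 and 8 Sox17 UMIs. Without the barcode that held most UMIs of each gene, 3 arterial genes could be compared, all above 1 (median log2 ratio 1.49). Fbln5, an elastic fibre protein, had 42 and 63 UMIs, a ratio of 3.60 [2.40, 5.45]. Sox17 had 25 and 31 UMIs (2.97 [1.70, 5.25]), and Stmn2, a microtubule regulator, 56 and 60 (2.57 [1.76, 3.77]). With any Ptprc count, Ackr1/Selp barcodes held 79 of the 93 Stmn2 UMIs and 41 of the 48 Fbln5 UMIs in WT. In IL31RAKO they held 55 of 138 and 29 of 98, so Stmn2 and Fbln5 did not mark arterial barcodes alone. Within the Ackr1/Selp set the ratio of Fbln5 was 2.12 [1.19, 3.69] and that of Stmn2 2.38 [1.48, 3.79]. Both rested largely on few IL31RAKO barcodes: 1 held 12 Fbln5 UMIs and another 8, and 1 held 17 Stmn2 UMIs and another 10. Gja4 had 0 UMIs within the Ackr1/Selp set in both libraries, so its difference lay wholly outside that set.

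Genes of the venular list leaned the other way. Of 8 genes tested, 7 had ratios below 1 and 2 passed the fold, with a median log2 ratio of -0.33, or -0.90 without the barcode that held most UMIs of each gene. Sele had 101 and 16 UMIs, 350 and 133 CPM, a ratio of 0.380 [0.209, 0.648]. Aplnr, the apelin receptor, had 107 and 17 UMIs (0.381 [0.214, 0.639]). With any Ptprc count, Aplnr was lower in the Ackr1/Selp set than in the Gpihbp1 set, at 276 and 431 CPM in WT. In IL31RAKO it was at 151 and 170 CPM, so it did not mark venules alone. Selp and Vwf (von Willebrand factor) had ratios of 0.687 [0.515, 0.905] and 0.620 [0.438, 0.862], while Ackr1 (0.926 [0.721, 1.18]) and Lrg1 (1.00 [0.882, 1.14]) had intervals that include 1. Within the Ackr1/Selp set, Sele had a ratio of 0.521 [0.286, 0.888] and Aplnr one of 0.418 [0.193, 0.8115]. The list as a whole no longer leaned there: 4 genes lay above 1 and 4 below, with a median log2 ratio of 0.10. The set is itself defined by 2 of these genes.

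Capillary genes were divided. Of 9 tested, 2 were past the fold above and 1 below. Meox2, a homeobox transcription factor, had 31 and 29 UMIs (2.24 [1.30, 3.85]), but a ratio of 1.76 [1.15, 2.70] with the Ptprc-positive barcodes, which is under the fold. Gpihbp1 had 55 and 39 (1.70 [1.10, 2.61]). Fabp4 was at 10035 and 7243 CPM (0.722 [0.668, 0.779]), and Cd300lg, a capillary and venule mucin-like receptor, had 84 and 16 UMIs (0.457 [0.2498, 0.786]). Rgcc also passed the fold, but at 93.5 and 191 CPM it lay under free RNA (251 and 305 CPM), and its ratio was 1.01 without the barcode that held 12 of its 23 IL31RAKO UMIs. The list's median log2 ratio was 0.49, and -0.25 when the barcode with most UMIs of each gene was left out.

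Junction and caveolar genes leaned higher in IL31RAKO, with 10 of 13 above 1, 3 past the fold and a median log2 ratio of 0.46. Those past the fold were Gja4, the caveolar gene Cavin2 (listed as Sdpr, 68 and 62 UMIs, 2.19 [1.52, 3.13]) and Tjp1, the scaffold protein ZO-1 (18 and 19 UMIs, 2.53 [1.26, 5.12]). Tjp1 was not past it with the Ptprc-positive barcodes (1.54 [0.913, 2.58]) or without its top barcode (2.125 [0.997, 4.46]), and Sdpr was not without its top barcode (1.82 [1.23, 2.68]). Within the Ackr1/Selp set the list's median log2 ratio was 0.12. Cldn5, the main claudin of endothelial tight junctions, had 67 and 53 UMIs, 232 and 440.2 CPM, a ratio of 1.90 [1.30, 2.76]. In Ackr1/Selp barcodes it had 19 and 2 UMIs, so its higher level lay outside that set. Cdh5 itself was level, at 630.2 and 631 CPM.

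**Figure D5:**
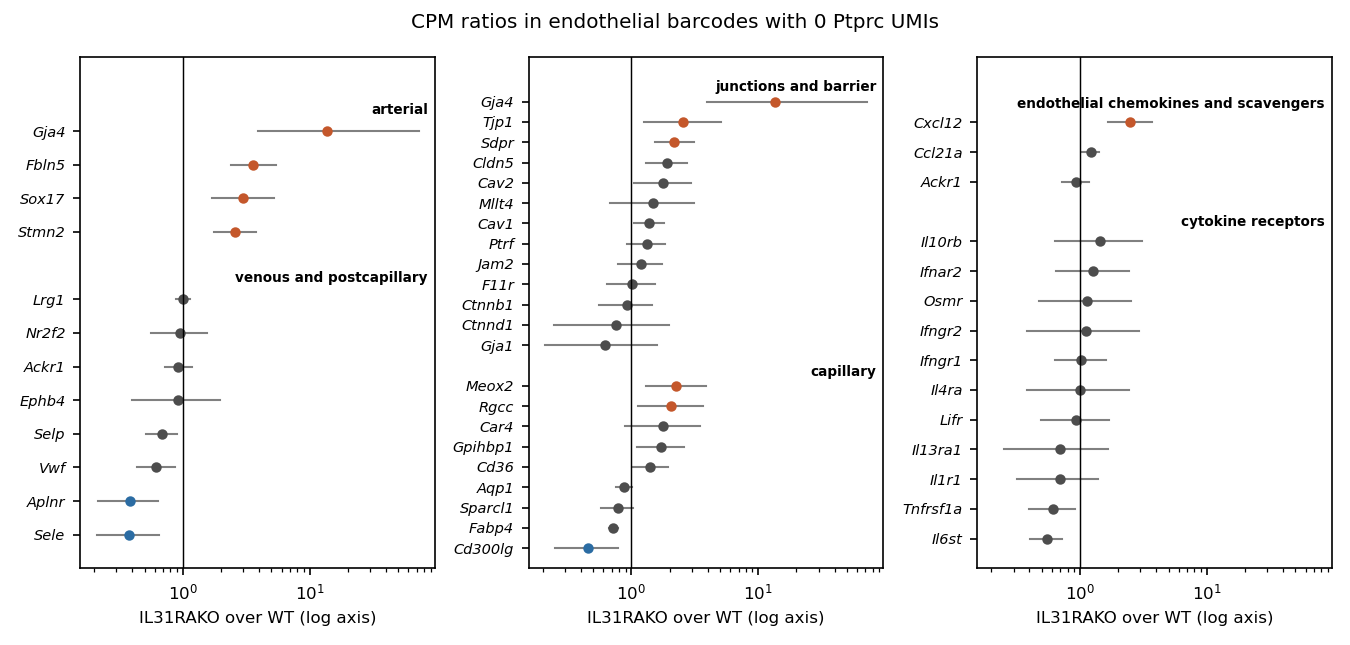
Points are CPM ratios, IL31RAKO over WT, in Ptprc-zero endothelial barcodes on a log axis and lines their 95% counting intervals; orange and blue points passed the 2-fold limit above and below 1. All 4 tested genes of the arterial list lie right of 1, from 2.57 to 13.6. Sele and Aplnr lie farthest left among genes of the venular list, at 0.380 and 0.381.

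Receptor genes of the IL-31 family were looked at in each library. Il31ra had 0 UMIs in all 79 WT and 34 IL31RAKO endothelial barcodes, which allows up to 3.80% and 8.82% of barcodes with a UMI. The other barcodes held 11 and 26 Il31ra UMIs, and a 3′ tag can lie outside a deleted stretch, so these counts check nothing about the knockout. Il31, the ligand gene, had 0 UMIs in every barcode. Osmr had 28 UMIs in 18 WT and 18 UMIs in 13 IL31RAKO endothelial barcodes. These were 38.4% (27.2 to 50.5%) of all 73 Osmr UMIs in WT and 24.7% (15.3 to 36.1%) of all 73 in IL31RAKO, from 0.662% and 0.233% of the barcodes. In Ptprc-zero barcodes Osmr stood at 72.7 and 83.1 CPM, 74.0-fold and 92.3-fold above the other barcodes, with a ratio between libraries of 1.14 [0.480, 2.53]. Osmr RNA was thus found in these barcodes far above their share of the library, and Il31ra was not detected in them.

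Il6st, the shared signalling chain of the IL-6 family, had 268 and 61 UMIs, 928 and 507 CPM, a ratio of 0.546 [0.406, 0.723] that did not reach the 2-fold limit. Of the 61, 26 were in 1 barcode. In Ackr1/Selp barcodes with any Ptprc count it was at 1083 and 716 CPM (0.662 [0.522, 0.831]). Tnfrsf1a, a TNF receptor, had a ratio of 0.610 [0.394, 0.917]. Of the 11 receptors tested none passed the fold in either direction, and their median log2 ratio was 0.01, as for all genes.

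By the interval bound nearest to 1, the 10 genes named as higher in IL31RAKO were Igfbp3, Gja4, Azin1, Rbp7, Fbln5, Slc6a6, Nqo1, Stmn2, Sox17 and Cxcl12. Igfbp3, an insulin-like growth factor binding protein, had 0 UMIs in WT and 21 in IL31RAKO, at least 16.8-fold higher against a floor of 3 UMIs over the group, but 19 of the 21 were in 1 barcode. Rbp7, a retinol-binding protein, had 8 and 23 UMIs (6.90 [2.98, 17.8]), 11 of the 23 in 1 barcode. With the Ptprc-positive barcodes its ratio was 3.46 [1.75, 7.15]. Azin1, which stabilises ornithine decarboxylase, had 7 and 24 UMIs in 6 and 8 barcodes (8.22 [3.44, 22.6]). Igfbp3, Rbp7 and Azin1 reached the minimum of 20 UMIs only through their IL31RAKO counts. Slc6a6, the taurine transporter, had 48 and 58 UMIs (2.90 [1.94, 4.34]), and Nqo1, a quinone reductase, 9 and 16 (4.26 [1.77, 10.9]). Cxcl12, a chemokine, had 52 and 54 UMIs (2.49 [1.67, 3.72]), and with the Ptprc-positive barcodes 57 and 136 UMIs (4.29 [3.12, 5.95]). Without its top barcode the ratio was 1.94 [1.26, 2.98], just under the fold. Without the pericyte-bearing barcode, which held 15 of the 136 UMIs, it was 4.00 [2.90, 5.58]. Within Ackr1/Selp barcodes its ratio was 0.805 [0.236, 2.21] and Sox17 had 9 and 1 UMIs, so the higher levels of both lay outside that set.

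The 10 genes named as lower in IL31RAKO were Ccl5, Cytl1, Mphosph8, Il6, Sectm1a, Fam43a, Aplnr, Tex264, Sele and Scarb1. All of these but Scarb1 reached the UMI minimum only through their WT counts. For Mphosph8 and Tex264, whose WT counts lay just above that minimum, a low ratio is partly set by it. Il6 had 90 and 8 UMIs, 312 and 66.5 CPM, a ratio of 0.213 [0.0893, 0.438]. A single WT barcode held 38 of the 90, and without it the ratio was 0.361 [0.148, 0.766]. Il6 was held by 13 of 53 WT and 3 of 21 IL31RAKO barcodes. Scarb1, the HDL receptor SR-BI, was spread over 42 of 53 and 13 of 21 barcodes with 310 and 65 UMIs (0.503 [0.379, 0.659]). Its ratio was 1.37 [0.411, 3.60] in the few barcodes with at most 2 leukocyte-list UMIs, from 27 and 5 UMIs. Sectm1a, a secreted and membrane protein of the CD7 ligand family, had 72 and 8 UMIs (0.267 [0.111, 0.554]), and Fam43a 83 in 41 barcodes and 11 in 9 (0.318 [0.153, 0.599]). Mphosph8, a reader of methylated histone H3, had 24 UMIs in 17 barcodes and 0, at least 3.33-fold lower against a floor of 3 UMIs over the group, and 31 and 7 UMIs over all endothelial barcodes. Tex264, a receptor for autophagy of the endoplasmic reticulum, had 23 and 1. With the Ptprc-positive barcodes it had 29 and 10, a ratio of 0.619 [0.269, 1.31] that is not past the fold.

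Other lower genes rested on few droplets. All 51 Ccl5 UMIs of WT were in 1 of 53 barcodes. Cytl1, a cytokine-like secreted protein, had 47 and 1 UMIs, in 3 WT barcodes of which 1 held 25. With the Ptprc-positive barcodes it had 47 and 15, a ratio of 0.573 [0.298, 1.04] that is not past the fold. Within the Ackr1/Selp set Il6 (0.303 [0.127, 0.625]), Sectm1a (0.327 [0.127, 0.710]), Fam43a (0.379 [0.157, 0.790]) and Scarb1 (0.577 [0.412, 0.792]) remained below 1.

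Leukocyte adhesion genes apart from Sele were nearer to level. Of 10 tested, 5 lay above and 5 below 1, with 0 past the fold above, 1 below (Sele) and a median log2 ratio of -0.07. Pecam1, a junctional adhesion protein, was at 1157 and 1038 CPM (0.898 [0.725, 1.11]) and Esam at 793 and 598 CPM (0.754 [0.570, 0.987]). Podxl, a sialomucin, was at 235 and 374 CPM (1.59 [1.06, 2.35]). Within the Ackr1/Selp set 2 of the 10 lay above 1 and 8 below.

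Receptors of VEGF and angiopoietins had 0 of 10 genes past the fold in either direction and a median log2 ratio of 0.34. Eng, the TGF-beta co-receptor endoglin, was at 540.2 and 723 CPM (1.34 [1.02, 1.75]), and Tie1 had a ratio of 1.73 [1.09, 2.70]. Tek, the receptor TIE2, had a ratio of 1.20 [0.711, 1.98] and Kdr, which chose the barcodes, one of 0.843 [0.517, 1.33]. Basement membrane genes of the tip cell list differed in direction: Col4a1 had a ratio of 1.46 [1.03, 2.06] and Col4a2 one of 0.657 [0.408, 1.02].

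Genes of coagulation and vessel tone had 0 of 9 past the fold in either direction. The thrombin receptor thrombomodulin (Thbd, 0.960 [0.502, 1.75]), endothelin (Edn1, 0.923 [0.472, 1.71]) and the endothelial nitric oxide synthase (Nos3, 1.04 [0.443, 2.28]) had wide intervals that include 1. Interferon-induced genes had 0 of 6 past the fold in either direction, with Ifitm3 at 5114 and 4668 CPM. Of the 6, 5 lay below 1, with a median log2 ratio of -0.37. With a minimum of 10 UMIs 12 of 14 lay below 1, and without the barcode with most UMIs of each gene 3 of 6. Immediate early and heat shock genes, which digestion of tissue can raise, had 0 of 20 past the fold, with Fos at 841 and 839 CPM.

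Leukocyte genes in the Ptprc-zero barcodes differed between the libraries as well. The neutrophil genes S100a9 (7 and 24 UMIs, 17 of the 24 in 1 barcode) and S100a8 (6 and 21 UMIs) were past the fold above. The T cell genes Cd3d (27 and 3 UMIs) and Cd3e (22 and 2) were past it below, Cd3d no longer with the Ptprc-positive barcodes (0.541 [0.320, 0.882]). Cd3d and Cd3e reached the UMI minimum only through their WT counts, and S100a8 and S100a9 only through their IL31RAKO counts. All 4 lay far under their level in the other barcodes, and their part in the differences above was not tested.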

How the data were processed

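Droplet RNA of sorted skin cells was measured in 2 libraries, 1 WT and 1 IL31RAKO. The deposited values were raw UMI counts per gene and barcode, 27998 genes by 737280 barcodes per library, empty droplets included, with no normalisation. The tools named are Cell Ranger 3.1 and Seurat 3.2.2 and the build mm10, per the submitters' processing notes (no role is stated there). The members, the 28 gene lists and the limits were chosen with earlier results of these data known.

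Counts were summed over the barcodes of a set and scaled to 1000000 (CPM), with Python 3.11.15, numpy 2.4.6, scipy 1.17.1 and pandas 2.3.3. Genes needed 20 or more UMIs in the Ptprc-zero members of both libraries together, so a gene could pass through 1 library alone. Shares carry Clopper-Pearson intervals and ratios an exact conditional interval, both at 95%. Only the ratio interval was checked on simulated data. Those counts had no variation between barcodes, so the check does not cover it. A gene passed the fold at a ratio of at least 2, or at most 0.5, with an interval excluding 1, and against the other barcodes at 4 or more in both libraries. The 10 genes named each way had the interval bound nearest to 1 that lay farthest from 1. That ranking left out genes below free RNA, sex-linked and unnamed genes, antigen receptors, and mitochondrial, haemoglobin and ribosomal genes. The 20 named against other barcodes had 50 or more UMIs. From the lists, genes of highest CPM, of a vessel type or past the fold are named. Afdn, Cavin1 and Cavin2 were found under older symbols, and 5 antigen receptor genes were without a row. Cell names were rebuilt here and can depart from the authors' own. No doublet caller was used. Alternatives changed the member limits, the gene minimum, the scaling, the free RNA and the barcodes used.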

Additional observations from a re-analysis of the deposited data

How the results depend on the processing

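No paired analysis was possible because the groups share only replicate number 1 and no result comes from a test. The ratio of endothelial shares stayed between 0.340 and 0.404, and that of Ptprc-zero shares between 0.245 and 0.389, under every alternative run. Thinned to 1000 UMIs, the percent of endothelial barcodes with a Ptprc UMI was 9.211 in WT and 12.5 in IL31RAKO, since thinning leaves fewer UMIs to find it in. The count of genes past the fold followed the number of genes tested and the barcodes used. With all members it was 141 higher and 87 lower, 40 and 36 of them shared with the 85 and 67. With at most 2 leukocyte-list UMIs, which left 10 WT and 3 IL31RAKO barcodes, 7 were higher and 7 lower. With 10 or more UMIs per gene 134 were higher, and with 50 or more 22 were higher and 24 lower. With only members that hold an Ackr1 or Selp UMI, added after seeing the data, 55 were higher and 53 lower, 21 and 22 of them shared. Without the barcode with most UMIs of each gene 64 were higher and 57 lower, of which 32 and 38 were shared. Without mitochondrial, ribosomal and haemoglobin genes in the total, the split was 76 higher to 77 lower. Against the other barcodes, 222 genes passed with 50 or more UMIs per gene. Of 221 values of 32 single genes over 9 alternatives, each with enough UMIs to be computed, 207 stayed within their interval, 12 moved out of it and 2 reversed: Scarb1 was at 1.367 with at most 2 leukocyte-list UMIs (27 and 5 UMIs), and Cxcl12 at 0.8052 in Ackr1 or Selp members. The cause was not tested. With 53 and 21 Ptprc-zero barcodes, depth limits genes of few UMIs most.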
